A study of Homo sapiens with 16 samples.

Results

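BCL2 family apoptosis regulators were followed in the mesenchymal stem cell (MSC) line ASC52telo. The 10 genes were chosen by symbol, with no measured value in the rule but with earlier results of these data known. All 10 were among the 19103 genes tested of 60649 gene identifiers counted. They comprise 5 pro-survival genes (BCL2, BCL2L1, BCL2L2, MCL1 and BCL2A1) and 5 pro-death genes, of which BAX and BAK1 encode the pore-forming effectors and BCL2L11, PMAIP1 and BBC3 encode BH3-only proteins.

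ASC52telo is a single line of adipose-derived MSCs, wild type by its label, that was immortalized with telomerase reverse transcriptase, which all groups share. Poly(A)-enriched RNA was sequenced in 16 libraries, 4 in each of 4 groups. MmC-/GDF11- cells received neither agent. MmC-/GDF11+ cells received growth differentiation factor 11 (GDF11), a secreted cytokine of the TGF-beta superfamily, at 10 ng/mL over 10 days. MmC+/GDF11- cells were exposed to mitomycin C (MmC), a DNA cross-linking agent used to make them senescent, at 1.5 µg/mL for 18 h and were then kept for the same 10 days. MmC+/GDF11+ cells received MmC and then GDF11 at the same dose. Cells without MmC are called young below. The 4 replicates of a group come from 1 line, so p-values measure the spread between these cultures and not between donors.

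BCL2 family proteins decide at the outer mitochondrial membrane whether a cell starts the intrinsic apoptosis programme. Pro-survival members hold BAX and BAK1 in check, BH3-only members bind and neutralize the pro-survival members or activate the effectors directly, and active effectors form pores that release cytochrome c. Senescent cells are known for resisting apoptosis, and drugs that bind BCL2, BCL-xL (from BCL2L1) and BCL-w (from BCL2L2) are among the agents used to kill them. Only RNA was measured here. Transcripts of BCL2L1, MCL1 and BCL2L11 that encode proteins of opposite or different activity are summed in 1 count per gene.

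With MmC, the RNA of 4 of the 5 pro-survival genes rose both without and with GDF11, namely BCL2A1, BCL2L1, BCL2L2 and MCL1. Of all genes tested, 22.9% rose without GDF11 and 23.4% with it. Of the 5 pro-death genes, BCL2L11 rose and PMAIP1 fell in both comparisons, and BAK1 fell with GDF11, a call that 8 of 19 alternatives lost. The shares of all genes that fell were 22.4% without GDF11 and 23.3% with it. For GDF11 itself, no member passed the test in young or in senescent MSCs, beside 0% of all genes in each.

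Promoter sequence is shown for 3 genes called with MmC: BCL2A1 and BCL2L11, with the largest increases of their classes, and PMAIP1, which fell. Each is the 250 bases before the RefSeq start site on GRCh38.p14, written 5′ to 3′ on the gene's own strand. BCL2A1 lies at chr15:79971197-79971446 on the minus strand, and the capitals mark the TATA box letters TATAAA. BCL2L11 lies at chr2:111120664-111120913 on the plus strand, and the capitals mark the FOXO site letters TGTTTAC read on the opposite strand. PMAIP1 lies at chr18:59899746-59899995 on the plus strand and has no capitals because none of the letters searched were found.
BCL2A1: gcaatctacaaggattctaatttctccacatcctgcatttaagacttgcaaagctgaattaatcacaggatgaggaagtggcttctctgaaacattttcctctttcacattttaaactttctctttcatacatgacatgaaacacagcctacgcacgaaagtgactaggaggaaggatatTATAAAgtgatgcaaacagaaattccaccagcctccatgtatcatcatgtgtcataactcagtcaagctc
BCL2L11: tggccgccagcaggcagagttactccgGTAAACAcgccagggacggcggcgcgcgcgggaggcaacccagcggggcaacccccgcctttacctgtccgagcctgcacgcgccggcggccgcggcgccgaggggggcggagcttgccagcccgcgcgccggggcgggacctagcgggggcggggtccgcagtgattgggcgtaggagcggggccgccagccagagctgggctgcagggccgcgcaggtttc
PMAIP1: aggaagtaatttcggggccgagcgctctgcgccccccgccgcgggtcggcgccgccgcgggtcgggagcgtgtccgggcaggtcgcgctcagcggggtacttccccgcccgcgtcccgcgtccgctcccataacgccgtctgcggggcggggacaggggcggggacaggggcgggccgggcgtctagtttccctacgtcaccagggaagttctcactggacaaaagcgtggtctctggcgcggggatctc

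The BCL2A1 stretch had 38.8% G and C, close to the 10th percentile of all RefSeq promoters (38%), whereas those of BCL2L11 (76.8%) and PMAIP1 (72.8%) lay near the 90th percentile (75.2%). Windows of 300 bases, these 250 and the 50 after the start, were searched on both strands for short motifs. TATAAA was present in 11.5% of 35116 windows of the same length, began at position -70 of BCL2A1, and also occurred in 1 of the 2 BCL2L1 windows. TGTTTAC was present in 3.42% and began at position -223 of BCL2L11. The AP-1 letters TGANTCA (7.71% of windows) were in the BBC3 window. The NF-kappaB consensus (11.3%) and the CRE letters TGACGTCA (1.85%) were in none of the member windows. A match is a description of letters and not of binding, and no match says only that these letters were not in these windows.

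The cell label was checked first. The MSC surface genes NT5E, THY1, ENG, CD44 and ITGB1 were at 507 to 2717 CPM (read counts scaled to library size by the TMM method) over the 16 libraries. The leukocyte gene PTPRC was at most at 0.806 CPM, CD14 at 1.28 to 4.80 CPM, and CD3E and the epithelial gene EPCAM had at most 6 counts in any library. The endothelial gene PECAM1 was at 4.89 to 19.7 CPM. Total counts lay between 71275337 and 144204979 per library, and mitochondrial genes took 1.58% to 3.11% of the counts without MmC and 3.55% to 4.73% with MmC. CDKN1A, which encodes a cell cycle inhibitor, rose from 226 ± 70.6 to 1507 ± 395 CPM (SD, n = 4 each) with MmC without GDF11, while the lamin gene LMNB1 and the proliferation marker MKI67 fell. CDKN2A, a further senescence gene, did not pass the test (0.905 ± 0.224 and 1.06 ± 0.294 CPM, log2 fold change 0.23, edgeR adjusted p = 0.5162).

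The replicate 1 libraries of the MmC+ groups stood apart. In both MmC+ groups, replicate 1 was the highest or the lowest of the 4, on the same side, for 10 of the 10 members and for 56.3% of the 19103 genes. In the young groups this was so for 3 of the 10 members and for 32.8% of the genes. It was lowest for BCL2, MCL1, BCL2A1, BCL2L11 and PMAIP1 and highest for BCL2L1, BCL2L2, BAX, BAK1 and BBC3. The TMM scaling factors of these 2 libraries were 0.916 and 0.920, against 0.970 to 1.05 in the other 14. The MmC result of each member is therefore given with and without replicate 1 of every group, and what set these libraries apart was not tested. Replicate 4 of the MmC+ groups was the highest or the lowest, on the same side, for 6 of the 10 members and 31.7% of the genes. The paper names batch effects from technical issues among its limits, without saying which libraries they concern.

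**Figure D1:**
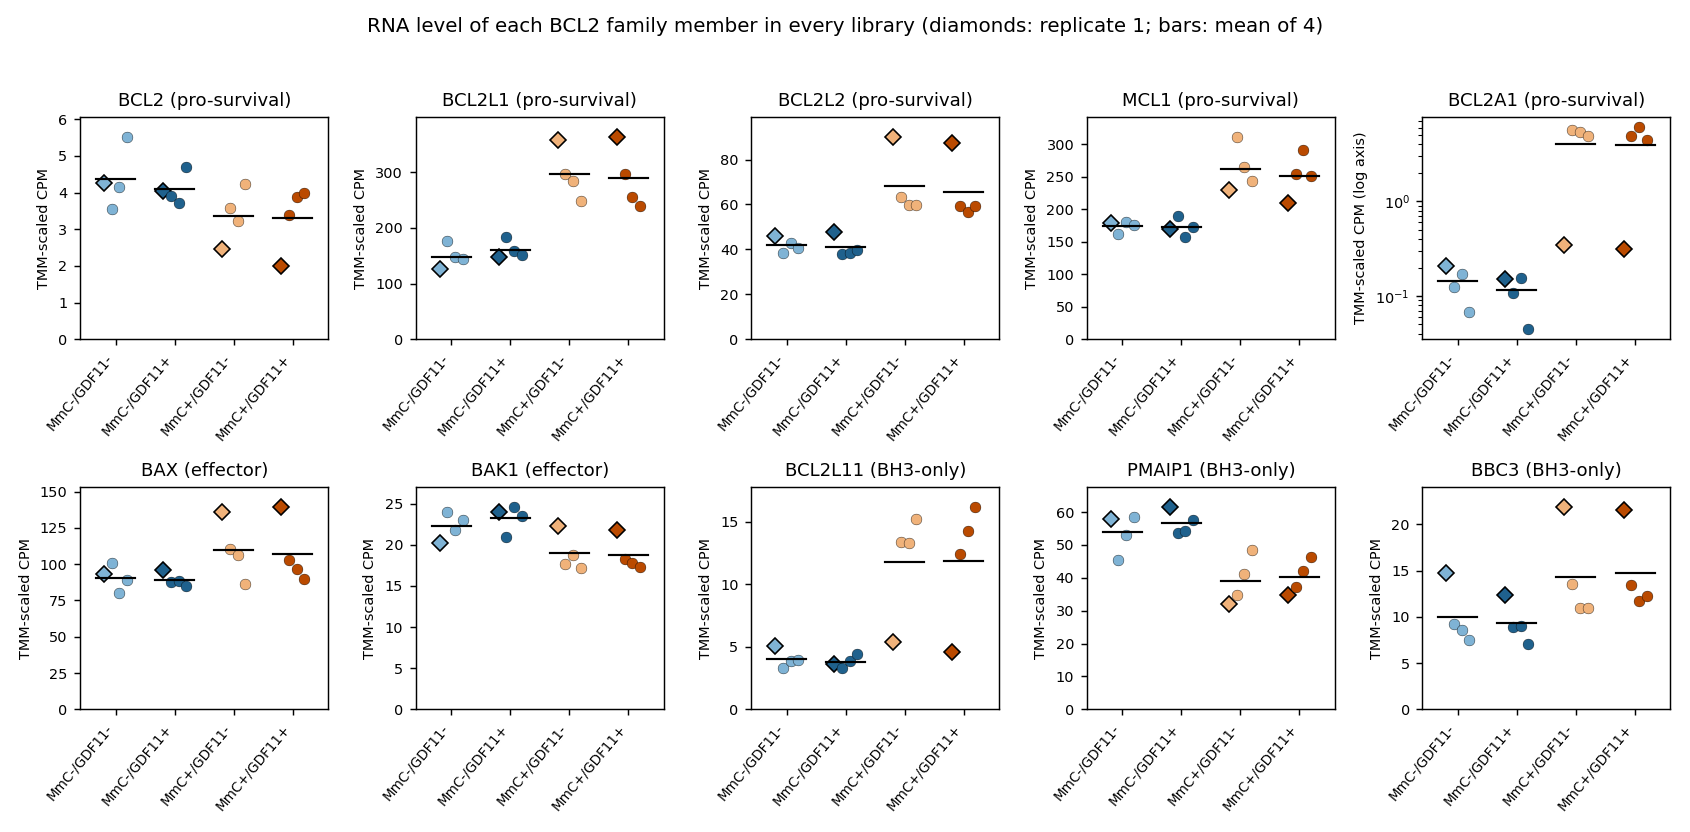
TMM-scaled CPM of each of the 10 genes (vertical axes, from 0 except for BCL2A1, which has a log axis) in the 16 libraries by group, with replicate 1 as diamonds, replicates 2 to 4 as circles and the mean of 4 as a bar. BCL2L1, BCL2L2 and MCL1 in the MmC+ libraries lie above all young libraries, and replicate 1 lies at the edge of both MmC+ groups in every panel.

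Pro-survival genes were compared between MmC+ and young MSCs first. BCL2L1 encodes BCL-xL, which sequesters BAX, BAK1 and BH3-only proteins. Its RNA in MmC-/GDF11- was at 126, 176, 148 and 143 CPM in replicates 1 to 4, and in MmC+/GDF11- at 357, 296, 285 and 248 CPM. With GDF11 the young libraries were at 147, 184, 158 and 150.4 CPM and the MmC+ libraries at 363, 297, 256 and 240 CPM. Every MmC+ library lay above every young library, and replicate 1 was the lowest young and the highest MmC+ library. The log2 fold change was 1.00 without GDF11 (SE 0.144, edgeR adjusted p = 4.959e-05) and 0.85 with GDF11 (SE 0.144, edgeR adjusted p = 0.0001891). Without replicate 1 the changes were 0.83 (edgeR adjusted p = 5.204e-05) and 0.69 (edgeR adjusted p = 0.0002485).

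BCL2L2, the gene of BCL-w, was at 45.8, 38.5, 42.9 and 40.5 CPM in MmC-/GDF11- and at 90.0, 63.4, 59.8 and 59.8 CPM in MmC+/GDF11-. In MmC-/GDF11+ it was at 47.8, 37.97, 38.3 and 39.8 CPM, and in MmC+/GDF11+ at 87.3, 59.3, 56.8 and 59.4 CPM. The groups did not overlap, and the other 3 MmC+ libraries of each group lay close together under replicate 1. Its log2 fold change was 0.70 without GDF11 (SE 0.151, edgeR adjusted p = 0.001365) and 0.68 with GDF11 (edgeR adjusted p = 0.001695). Leaving out replicate 1 gave 0.59 (edgeR adjusted p = 2.009e-05) and 0.60 (edgeR adjusted p = 1.688e-05). Of its exonic bases, 16.8% are shared on the same strand with the readthrough gene BCL2L2-PABPN1, which was at 0.195 to 0.648 CPM. How reads in the shared bases were counted is not given. Summing so few counts with those of BCL2L2, as in an alternative fit, could hardly change its result.

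MCL1 encodes a short-lived pro-survival protein that binds BAK1 and the PMAIP1 product NOXA. In MmC-/GDF11- it was at 178, 162, 181 and 176 CPM and in MmC+/GDF11- at 230.1, 311, 264 and 244 CPM. In MmC-/GDF11+ the values were 170, 189.8, 157 and 173 CPM, and in MmC+/GDF11+ 209, 254, 291 and 252 CPM. Here too the groups did not overlap, but replicate 1 was the lowest MmC+ library. The log2 fold change was 0.59 without GDF11 (SE 0.111, edgeR adjusted p = 0.0004646) and 0.54 with GDF11 (edgeR adjusted p = 0.0008818), and 0.66 and 0.62 without replicate 1.

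BCL2A1, whose product BFL-1 is known as an NF-kappaB-induced pro-survival protein of immune cells, was nearly absent from young MSCs. It had 16, 12, 13 and 7 counts in MmC-/GDF11- and 11, 8, 12 and 4 counts in MmC-/GDF11+, or at most 0.208 CPM. In MmC+/GDF11- it was at 0.344, 5.62, 5.39 and 4.85 CPM, and in MmC+/GDF11+ at 0.315, 4.92, 6.10 and 4.46 CPM. Replicates 2 to 4 of both MmC+ groups thus lay far above every young library, while replicate 1 had 34 and 23 counts and lay above the young libraries by much less. The fold change was 28.9 without GDF11 (log2 4.85, SE 0.892, edgeR adjusted p = 0.0004793) and 34.8 with GDF11 (edgeR adjusted p = 0.0003986). Without replicate 1 the folds were 44.7 (SE on the log2 scale 0.291, edgeR adjusted p = 2.98e-09) and 51.3 (edgeR adjusted p = 3.167e-09). Leaving replicate 1 out of every group thus moved the fold without GDF11 by over 1.5 times. Leaving out MmC+/GDF11- replicate 1 alone moved the log2 fold change less, from 4.85 to 5.25. Compared within replicate numbers, BCL2A1 was 1.66-fold higher with MmC in replicate 1 and 45.2, 31.7 and 71.8-fold higher in replicates 2 to 4, on the few counts of the young libraries. Of the 31-base words of its exons, 11.6% also occur elsewhere, most of them at the nearby gene ST20-MTHFS, which had at most 17 counts in a library.

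BCL2, the founding member, did not pass the test in either comparison. Its level without GDF11 was 4.26, 3.55, 4.16 and 5.51 CPM in young MSCs and 2.45, 3.58, 3.22 and 4.22 CPM after MmC. With GDF11 it was 4.04, 3.92, 3.72 and 4.69 CPM in young MSCs and 2.01, 3.39, 3.89 and 4.00 CPM after MmC. Young and MmC+ libraries overlapped. The log2 fold change was -0.38 without GDF11 (95% interval -0.82 to 0.06, edgeR adjusted p = 0.1509) and -0.30 with GDF11 (edgeR adjusted p = 0.2561). Without replicate 1 it was -0.26 (edgeR adjusted p = 0.2048) and -0.13 (edgeR adjusted p = 0.5529).

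Counted over the 10 genes, 5 were higher and 1 was lower with MmC without GDF11 at an adjusted p under 0.05, beside 45.3% of all genes called (22.9% higher and 22.4% lower). With GDF11, 5 were higher and 2 lower, beside 46.7% of all genes (23.4% higher and 23.3% lower). The libraries did not overlap for 5 of 10 members without GDF11, where 37.3% of all genes did not overlap, and for 6 of 10 with GDF11, where the share was 41.5%. Without replicate 1 of every group, 8 of 10 members were called in each comparison, beside 51.7% of all genes without GDF11 and 52.6% with GDF11. The 2 comparisons use different libraries but share 1 estimate of the spread. Libraries of the same number also deviated together without and with GDF11, with correlations of 0.448 to 0.818 in senescent and 0.0982 to 0.504 in young MSCs. The 2 comparisons are therefore not independent of each other. The median log2 fold change of the 5 pro-survival genes was 0.70 without GDF11 and 0.68 with GDF11, that of the 5 pro-death genes 0.27 and 0.26, and that of all genes -0.01 in both. In bulk RNA, a change in every cell and a change in part of the cells cannot be told apart.

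**Figure D2:**
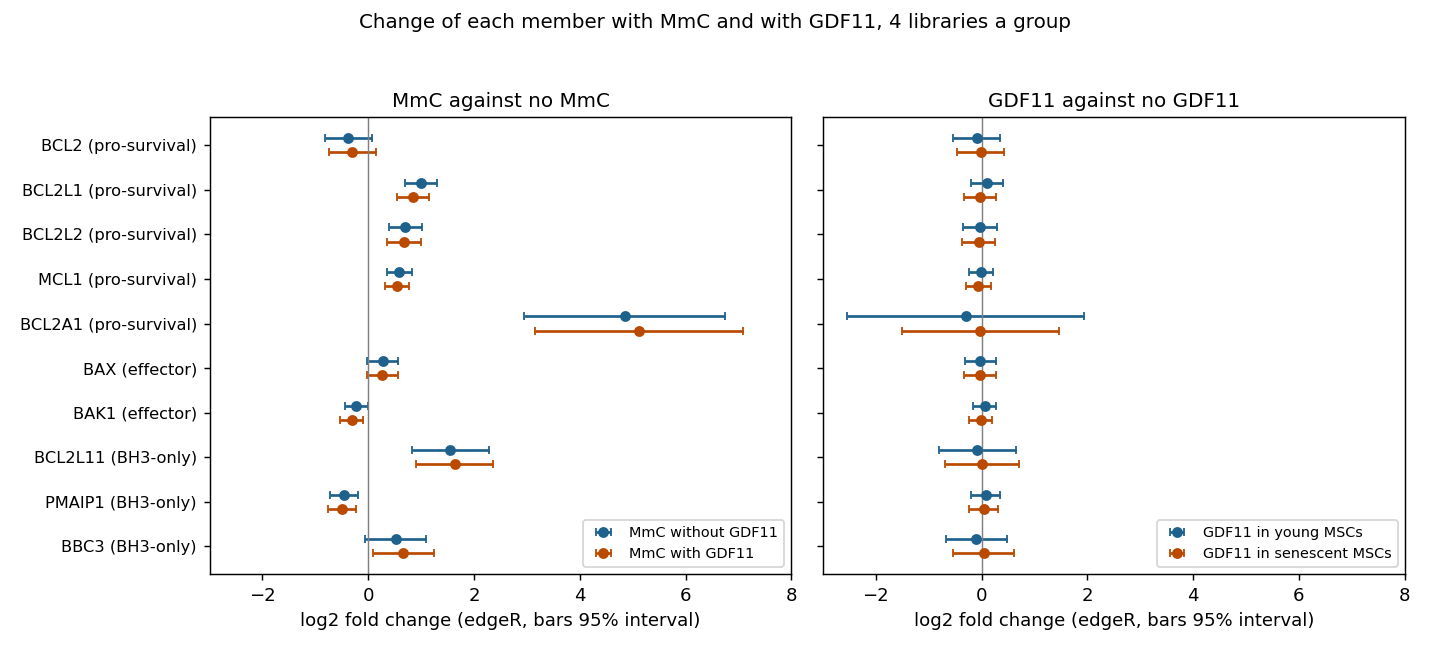
Log2 fold change with its 95% interval for each of the 10 genes, for MmC in the left panel and for GDF11 in the right panel, each from 4 against 4 libraries. BCL2A1, BCL2L1, BCL2L2, MCL1 and BCL2L11 lie to the right of 0 for MmC, PMAIP1 lies to the left, and for GDF11 all intervals include 0.

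Of the effectors, BAX did not pass the test in either comparison and BAK1 fell with GDF11, though not under every alternative. BAX was at 93.3, 100.5, 79.9 and 89.3 CPM in MmC-/GDF11- and at 136, 110.3, 107 and 86.0 CPM in MmC+/GDF11-. In MmC-/GDF11+ it was at 96.2, 87.9, 88.4 and 84.6 CPM and in MmC+/GDF11+ at 139, 103, 96.9 and 90.0 CPM. The groups overlapped, with replicate 1 the highest MmC+ library of each. For BAX the log2 fold change was 0.27 without GDF11 (95% interval -0.02 to 0.57, edgeR adjusted p = 0.1215) and 0.26 with GDF11 (edgeR adjusted p = 0.1326), and 0.17 and 0.15 without replicate 1, where it did not pass the test either.

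BAK1 was at 20.2, 23.98, 21.7 and 23.1 CPM in MmC-/GDF11- and at 22.3, 17.7, 18.8 and 17.2 CPM in MmC+/GDF11-. The values were 23.98, 21.0, 24.6 and 23.5 CPM in MmC-/GDF11+ and 21.8, 18.2, 17.7 and 17.3 CPM in MmC+/GDF11+. Replicates 2 to 4 of each MmC+ group lay below the young libraries, and replicate 1 lay among them. BAK1 had a log2 fold change of -0.23 without GDF11 (SE 0.103, edgeR adjusted p = 0.07799) and -0.31 with GDF11 (SE 0.103, edgeR adjusted p = 0.02156). Without replicate 1 it was -0.36 (edgeR adjusted p = 0.003592) and -0.37 (edgeR adjusted p = 0.00292). The call with GDF11 was lost under 8 of 19 alternatives, of which 5 left out 1 library each (MmC-/GDF11+ replicate 1 or 3, MmC+/GDF11+ replicate 2, 3 or 4), with edgeR adjusted p up to 0.2216 over the 8. Of the 31-base words of BAK1 exons, 62.3% also occur elsewhere in the primary genome, most of them at chr20:32688930-32691054, where the processed pseudogene BAK1P1 lies. BAK1P1 itself was at 0.253 to 1.02 CPM, and how reads that match both places were treated is not given, so the BAK1 level is uncertain.

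BH3-only genes moved in different directions. BCL2L11 encodes BIM, which binds all pro-survival members and is a known target of FOXO factors. Without GDF11 it was at 5.03, 3.27, 3.89 and 3.91 CPM in young MSCs and at 5.36, 13.4, 13.3 and 15.2 CPM after MmC. The values with GDF11 were 3.64, 3.29, 3.90 and 4.41 CPM in young MSCs and 4.55, 12.4, 14.3 and 16.1 CPM after MmC. All MmC+ libraries lay above the young libraries of the same GDF11 state, but replicate 1 only just did, while replicates 2 to 4 were well separated. The fold change was 2.93 without GDF11 (log2 1.55, SE 0.341, edgeR adjusted p = 0.00183) and 3.11 with GDF11 (edgeR adjusted p = 0.00124). Without replicate 1 the folds were 3.78 (SE on the log2 scale 0.137, edgeR adjusted p = 6.019e-08) and 3.69 (edgeR adjusted p = 7.5e-08). Its exons share 727 bases, 10.8% of their length, with the noncoding gene MIR4435-2HG on the opposite strand. In replicates 2 to 4 that gene was at 44.5 to 58.9 CPM in young MSCs and at 22.6 to 27.2 CPM in MmC+ MSCs, the other direction from BCL2L11, and in replicate 1 it was at 49.8 to 55.8 CPM in all 4 groups.

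PMAIP1 encodes NOXA, a stress-induced protein that binds MCL1 and BFL-1. Its RNA was at 57.9, 45.5, 53.2 and 58.6 CPM in MmC-/GDF11- and at 32.0, 34.8, 41.2 and 48.5 CPM in MmC+/GDF11-. With GDF11 it was at 61.5, 53.5, 54.1 and 57.5 CPM in young MSCs and at 34.8, 37.4, 42.1 and 46.4 CPM in MmC+ MSCs. The groups overlapped without GDF11 by a single pair of libraries and did not overlap with GDF11. The log2 fold change was -0.46 without GDF11 (SE 0.128, edgeR adjusted p = 0.007947) and -0.50 with GDF11 (edgeR adjusted p = 0.004749). Without replicate 1 it was -0.34 (edgeR adjusted p = 0.03568) and -0.39 (edgeR adjusted p = 0.01735).

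BBC3 encodes PUMA, a further stress-induced protein that binds all pro-survival members. Young MSCs had 14.7, 9.23, 8.53 and 7.47 CPM without GDF11, and MmC+ MSCs had 21.8, 13.5, 10.9 and 10.9 CPM. With GDF11 the values were 12.3, 8.88, 8.96 and 7.09 CPM in young and 21.6, 13.4, 11.7 and 12.2 CPM in MmC+ MSCs. Replicate 1 was the highest library of each group, and replicates 2 to 4 with MmC lay above those without. BBC3 had a log2 fold change of 0.52 without GDF11 (SE 0.271, edgeR adjusted p = 0.1309) and 0.66 with GDF11 (edgeR adjusted p = 0.05724). Without replicate 1 it was 0.49 (edgeR adjusted p = 0.005801) and 0.59 (edgeR adjusted p = 0.001621).

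Same-numbered libraries deviated together for MmC without GDF11, where the lowest correlation of a pair across genes was 0.113. That pair was replicate 3, whose young library correlated better with an MmC+ library of another number. A fit with the replicate number as a block is given beside these results. In it 10 of 10 members were called, beside 57.9% of all genes. The 4 members added were BCL2 (log2 fold change -0.39, edgeR adjusted p = 0.04105), BAX (0.26, edgeR adjusted p = 0.0286), BAK1 (-0.24, edgeR adjusted p = 0.03721) and BBC3 (0.51, edgeR adjusted p = 0.0001163). With GDF11 the numbers were not taken to pair the libraries, and the block called 9 of 10 beside 59.0% of all genes.

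**Figure D3:**
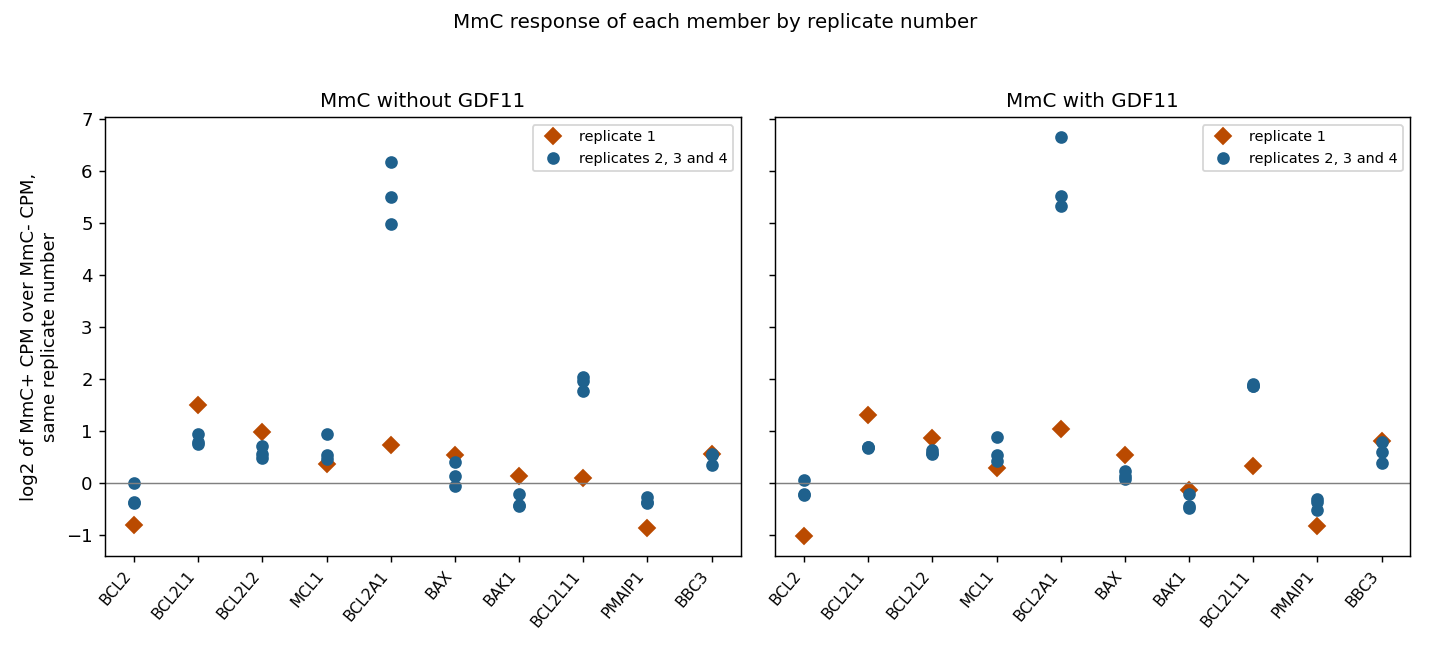
Log2 ratio of the CPM with MmC to the CPM without MmC in the libraries of the same replicate number, for each of the 10 genes, with replicate 1 as diamonds and replicates 2 to 4 as circles. BCL2A1 and BCL2L11 show diamonds near the bottom, at 0.73 and 0.09 without GDF11, under circles at 4.98 to 6.17 and 1.77 to 2.03.

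Within replicate numbers without GDF11, BCL2L1 was higher with MmC in 4 of 4 pairs, by log2 ratios of 0.75 to 1.50, and BCL2L2 and MCL1 likewise, by 0.48 to 0.97 and 0.37 to 0.94. PMAIP1 was lower in 4 of 4 pairs, by -0.86 in replicate 1 and by -0.39 to -0.27 in the others. BBC3 was higher in 4 of 4 pairs, by 0.35 to 0.57. BAX and BAK1 each had 1 pair of the opposite sign, replicate 4 for BAX (-0.05) and replicate 1 for BAK1 (0.14).

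Levels were compared between genes as CPM per kilobase of exon (CPM per kb), since longer transcripts collect more reads. The length counts all annotated exons of a gene together and not those of the transcript expressed. The order of the genes, and the sums and ratios below, depend on this choice. They also depend on how reads that match several genes were counted, as for BCL2L1 and BAK1, which is not given. In MmC-/GDF11- the order was BCL2L1 (35.3 CPM per kb), BAX (35.1), MCL1 (28.0), PMAIP1 (24.6), BAK1 (10.1), BCL2L2 (8.66), BBC3 (3.14), BCL2L11 (0.597), BCL2 (0.346) and BCL2A1 (0.143). The ranges over libraries overlapped between BCL2L1 and BAX, between MCL1 and PMAIP1 and between BAK1 and BCL2L2, and not between the other neighbours. In MmC+/GDF11- BCL2L1 stood alone at the top with 70.7 CPM per kb, above BAX (42.4) and MCL1 (42.2), whose ranges overlapped. PMAIP1 (17.9) and BCL2L2 (14.1) came next with overlapping ranges, then BAK1 (8.58), and BBC3 (4.49), BCL2A1 (4.07) and BCL2L11 (1.75) followed with ranges that overlapped between neighbours. BCL2 was last at 0.267 CPM per kb. The genes had the same order in the GDF11+ group of each MmC state.

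Summed over the 5 genes of each side, pro-survival RNA was at 72.5 ± 3.25 CPM per kb in young MSCs without GDF11 and at 74.8 ± 5.28 with it (SD, n = 4 each). After MmC it was at 131 ± 11.7 CPM per kb without GDF11 and at 127 ± 9.90 with it. Pro-death RNA was at 73.5 ± 3.72, 74.4 ± 4.18, 75.1 ± 6.85 and 74.7 ± 8.22 CPM per kb in the same order. The ratio of the first sum to the second was 0.891 to 1.08 in MmC-/GDF11- and 1.66 to 1.92 in MmC+/GDF11-, and with GDF11 0.904 to 1.16 and 1.59 to 1.81, so the young and MmC+ ranges did not overlap. Replicate 1 had the lowest ratio of each group. BCL2L1 made up 48.6% of the pro-survival sum in MmC-/GDF11- and 53.7% in MmC+/GDF11-, MCL1 38.7% and 32.2%, and BAX made up 47.7% and 56.1% of the pro-death sum. These sums weigh each gene by its RNA and say nothing of protein amounts, and no test was made on them because the genes were chosen with earlier results known.

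**Figure D4:**
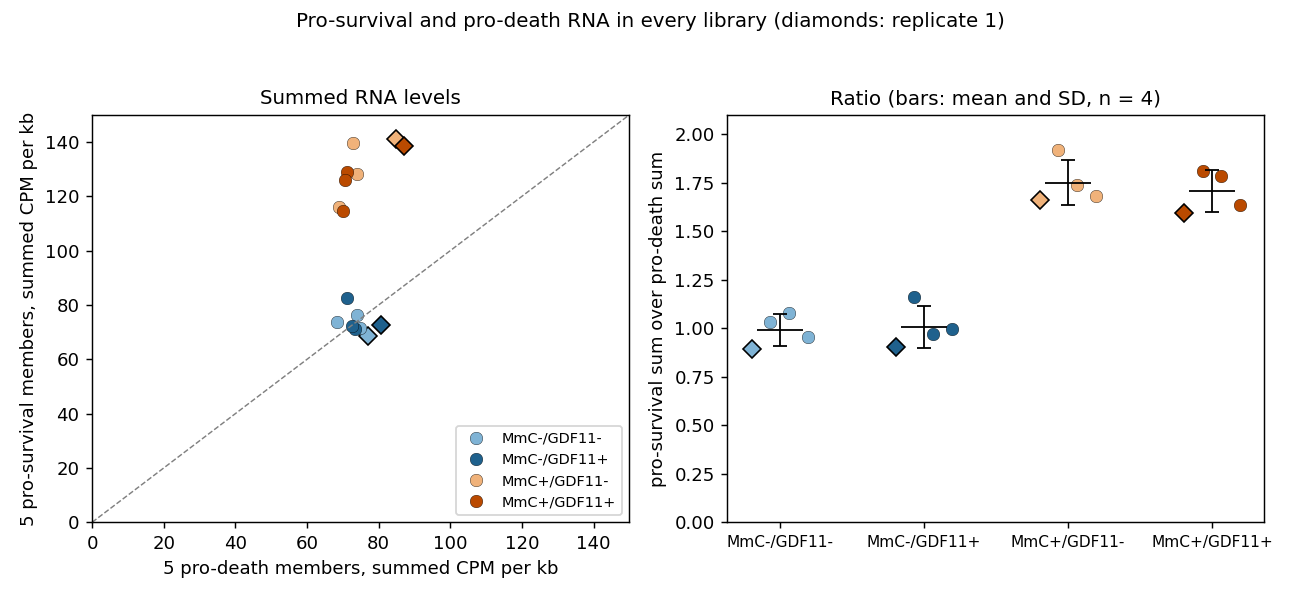
Left, summed CPM per kb of the 5 pro-survival genes against that of the 5 pro-death genes in each of the 16 libraries, with the dashed line where both are equal. Right, their ratio by group, with bars for the mean and SD of 4 libraries; young libraries lie at 0.891 to 1.16 and MmC+ libraries at 1.59 to 1.92.

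GDF11 was compared with no GDF11 in young and in senescent MSCs. These comparisons use the same libraries as the MmC comparisons, whose values per library are given above. In young MSCs no member was called, beside 0% of all genes, none had an unadjusted p under 0.05, and none had libraries that did not overlap, beside 0.890% of all genes. In senescent MSCs the counts were the same, beside 0% and 0.503% of all genes. Over all genes, 226 had an unadjusted p under 0.05 in young and 96 in senescent MSCs, and DESeq2 called 1 and 0 genes. The log2 fold changes of the members lay between -0.30 (BCL2A1) and 0.11 (BCL2L1) in young MSCs and between -0.06 (MCL1) and 0.04 (BBC3) in senescent MSCs.

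The GDF11 intervals were narrower for the well-counted members. All come from the fit without a replicate term. Same-numbered libraries of senescent MSCs deviated together (correlations 0.448 to 0.818), so the senescent intervals also hold spread between replicate numbers. With the replicate number as a block, no member was called in senescent MSCs or had an unadjusted p under 0.05, beside 0% of all genes called. For BCL2L1 the 95% interval of the log2 fold change was -0.19 to 0.41 in young and -0.34 to 0.26 in senescent MSCs. For MCL1 it was -0.25 to 0.22 and -0.29 to 0.17, and for BAX -0.32 to 0.27 and -0.33 to 0.26. Those of BCL2L11 were -0.80 to 0.64 and -0.70 to 0.71. BCL2A1 had the widest, -2.54 to 1.94 in young MSCs, where it had at most 16 counts, and -1.51 to 1.45 in senescent MSCs. The difference between the 2 MmC effects, tested as an interaction, lay between -0.15 (BCL2L1) and 0.27 (BCL2A1) on the log2 scale, and no member was called, beside 0% of all genes. Over all genes 172 had an unadjusted p under 0.05 for it, and DESeq2 called 0.

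Other genes of the family were described from lists written from general knowledge, with earlier results of these data known. Of 13 further relatives, 10 were tested. With MmC without GDF11, 4 fell and 1 rose, or 5 of 10 beside 45.3% of all genes. The fallers were BOK, a BAX-like effector (75.4 ± 12.1 to 45.3 ± 12.3 CPM, log2 fold change -0.74, edgeR adjusted p = 0.0144), the BH3-only genes BAD (-0.36, edgeR adjusted p = 0.0391) and BMF (2.13 ± 0.962 to 0.817 ± 0.216 CPM, -1.38, edgeR adjusted p = 0.000696), and BCL2L12 (-0.66, edgeR adjusted p = 0.004214). HRK, a BH3-only gene with at most 53 counts in a library, rose by 1.62 (edgeR adjusted p = 0.01572) without GDF11 and had 0.98 (edgeR adjusted p = 0.1174) with GDF11. In the comparison with GDF11 the same 4 of 10 genes fell, beside 23.3% of all genes, and none rose, beside 23.4%. Without replicate 1 of every group HRK was called with GDF11 too (1.34, edgeR adjusted p = 0.03294). BID, which links death receptors to the mitochondrion, had a log2 fold change of 0.26 (edgeR adjusted p = 0.08613).

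Downstream of the pores, 12 genes were listed and tested, and 4 rose with MmC without GDF11, beside 22.9% of all genes. The inhibitor of apoptosis genes BIRC3 (5.90 ± 0.830 to 38.6 ± 9.50 CPM, log2 fold change 2.71, edgeR adjusted p = 4.394e-07) and XIAP (0.32, edgeR adjusted p = 0.004531) rose. Their mitochondrial antagonists DIABLO (1.09 ± 0.0694 to 1.80 ± 0.165 CPM, 0.72, edgeR adjusted p = 0.0004215) and HTRA2 (0.28, edgeR adjusted p = 0.04865) rose too, DIABLO from a low level. The caspase gene CASP6 (-1.18, edgeR adjusted p = 6.451e-06) fell, as did BIRC5 (-2.17, edgeR adjusted p = 0.0003957), whose product survivin serves in mitosis. CASP9, APAF1, CYCS and BIRC2 did not pass the test. With GDF11, 3 of these 4 rose, HTRA2 being the one not called, beside 23.4% of all genes. In each comparison 3 of the 12 fell, beside 22.4% of all genes without GDF11 and 23.3% with it.

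In the death receptor pathway 11 of 12 genes were tested, and 4 rose and 1 fell in both MmC comparisons, or 5 of 11 beside 45.3% of all genes without GDF11 and 46.7% with it. The receptors FAS (44.2 ± 5.17 to 87.9 ± 9.05 CPM), TNFRSF10A (3.10 ± 0.216 to 8.76 ± 1.19 CPM) and TNFRSF10B (78.8 ± 3.66 to 222 ± 18.6 CPM) rose, with log2 fold changes of 0.99, 1.50 and 1.49 without GDF11. CFLAR, which encodes the caspase-8 inhibitor c-FLIP, rose by 0.88 (edgeR adjusted p = 2.876e-06), and the TNF receptor gene TNFRSF1A fell by 0.84 (edgeR adjusted p = 0.0004646).

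Among 12 genes of transcription factors and regulators known to act on the family, 6 rose in both MmC comparisons, beside 22.9% and 23.4% of all genes. In each comparison 1 fell, beside 22.4% and 23.3% of all genes, and 5 did not pass the test. Without GDF11 the ubiquitin ligase gene MDM2 rose by 1.92 on the log2 scale (edgeR adjusted p = 0.000153). The stress factor gene DDIT3 rose by 1.56 (edgeR adjusted p = 0.001405), FOXO3 by 0.47 (edgeR adjusted p = 0.0003414) and the NF-kappaB gene RELA by 0.41 (edgeR adjusted p = 0.001648). FOXO1 (-0.66, edgeR adjusted p = 0.1046) and the NF-kappaB genes NFKB1 (-0.08, edgeR adjusted p = 0.3788) and REL (0.69, edgeR adjusted p = 0.07119) did not pass the test. Without replicate 1 of every group REL was called (0.82, edgeR adjusted p = 0.03411). TP63 and TP73 rose from low levels, to 1.13 ± 0.305 and 0.287 ± 0.0732 CPM. For GDF11, no gene of any of these lists passed the test in young or senescent MSCs, beside 0% of all genes in each.

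The median log2 fold change for MmC without GDF11 was 0.16 over the tested relatives, 0.08 over the downstream genes, 0.10 over the death receptor pathway and 0.44 over the upstream factors, beside -0.01 over all genes. With GDF11 the medians were -0.01, -0.07, 0.05 and 0.48 in the same order, so those of the relatives and of the downstream genes differed in sign between the comparisons. Without replicate 1 of every group, 5 of 10 relatives, 7 of 12 downstream genes, 6 of 11 death receptor genes and 8 of 12 upstream factors were called for MmC without GDF11, beside the 51.7% of all genes given above.

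The genes most like BCL2A1 over the 16 libraries, by Pearson correlation of log2 CPM among 10968 protein-coding genes, were SMOX (r = 0.988), G0S2 (r = 0.988) and PITPNC1 (r = 0.988). Those most like BCL2L11 were ATP8B4 (r = 0.993), NR4A2 (r = 0.990) and MEIS1 (r = 0.989). These correlations run over 4 groups that differ in MmC. They also run over replicate 1 with MmC, where both members were nearer the young libraries than the other MmC+ libraries. They therefore describe shared group differences and shared replicate differences together.

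On hg38, the genes lie at chr18:63123346-63320128 (BCL2, ENSG00000171791.14), chr20:31664452-31723989 (BCL2L1, ENSG00000171552.14), chr14:23298790-23311751 (BCL2L2, ENSG00000129473.11), chr1:150560895-150579738 (MCL1, ENSG00000143384.14) and chr15:79960892-79971196 (BCL2A1, ENSG00000140379.9). The pro-death genes lie at chr19:48954815-48961798 (BAX, ENSG00000087088.20), chr6:33572547-33580293 (BAK1, ENSG00000030110.13), chr2:111119378-111168444 (BCL2L11, ENSG00000153094.24), chr18:59899996-59904305 (PMAIP1, ENSG00000141682.12) and chr19:47220822-47232766 (BBC3, ENSG00000105327.18). BCL2L1 shares 41.3% of its exonic bases with ABALON on the opposite strand, which was at 0.0558 to 0.193 CPM. The strand setting of the counting is not given, so how reads in these bases were counted is unknown and the BCL2L1 level is uncertain.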

How the data were processed

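Raw counts per gene were deposited by the authors, who used HISAT2 2.2.1 with hg38 for alignment and featureCounts 2.0.1 with GENCODE genes for counting. Strand and multi-mapping settings are not given in the sources used here. Groups and replicate numbers came from the sample labels.

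The tests came from edgeR 4.0.16 under R 4.3.3. Low genes were removed with filterByExpr (at least 10 counts in enough libraries and 15 in total), TMM gave the scaling, and the quasi-likelihood model held the 4 group means without a replicate term, over all 16 libraries. P-values were adjusted by Benjamini-Hochberg over 19103 genes at 0.05. The main fit treats paired libraries as unpaired. Same-numbered libraries were taken as paired where every correlation of their deviations from the group means exceeded 0.1, as for MmC without GDF11 (0.113 to 0.368) and GDF11 in senescent MSCs (0.448 to 0.818).

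Positions and exon lengths came from a later GENCODE release than the one counted, and 186 identifiers had no match. Promoter sequences came from RefSeq (GRCh38.p14) for 8 of the 10 genes. The main fit was tried on simulated counts with a fixed spread, no replicate differences and few changed genes. The real data differ in all of these, so that trial does not bear on replicate 1 or on the pairing. Alternatives were RLE scaling, other filters, fewer libraries, a replicate block, DESeq2 1.42.0, limma-voom (limma 3.58.1), each library or replicate number left out, and BCL2L2 summed with BCL2L2-PABPN1. The members and lists were chosen with earlier results of these data known. Genes named are the members, list genes, and the 3 genes most correlated with the member of each class that changed most (no effector was called without GDF11). Some genes of the lists and 1 motif searched are not reported here.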

Additional observations from a re-analysis of the deposited data

Results flagged for a closer look

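Of 40 pairs of a member and a group, 3 had a library separated from the other 3 by more than Dixon's 95% limit for 4 values, and chance alone gives about 1 in 20. All 3 were replicate 1 with MmC. BCL2L2 was at 90.0 CPM in replicate 1 of MmC+/GDF11-, against 59.8 to 63.4 CPM in the others, a gap of 0.881 of the range. It was at 87.3 CPM in replicate 1 of MmC+/GDF11+, against 56.8 to 59.4 CPM, a gap of 0.915. BCL2A1 was at 0.344 CPM in replicate 1 of MmC+/GDF11-, against 4.85 to 5.62 CPM, a gap of 0.854. What set replicate 1 apart was not tested.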

How the results depend on the processing

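No member changed direction with MmC under any alternative. Several GDF11 changes near 0, none of them called, changed sign: BCL2L11 in young MSCs went from -0.08 to 0.07 and BCL2 in senescent MSCs from -0.02 to 0.03 without replicate 1 of every group. The count of members called with MmC without GDF11 went from 6 to 10 with the replicate number as a block, and no other count of members called moved by over 1.5 times. BCL2A1, BCL2L1, BCL2L2, MCL1 and BCL2L11 stayed past the threshold in both MmC comparisons under every alternative that gave a value. BCL2A1 had none under the filter of at least 10 counts in every library, which removed it. PMAIP1 without GDF11 was not called without replicate number 3 (edgeR adjusted p = 0.05522). BAK1 with GDF11 was not called under 8 of 19 alternatives (edgeR, DESeq2 and limma-voom adjusted p from 0.00292 to 0.2216 over all 19). BBC3 with GDF11 was called under 7 of 19, and without GDF11 BAK1 and BBC3 each under 3 of 19. BAX without GDF11 was called under 2, the block and without MmC+/GDF11- replicate 4. For GDF11 the lowest adjusted p of any member under any alternative was 0.9998, and the block changed no GDF11 call. RLE scaling moved the median of all genes by less than 0.1 on the log2 scale. Depth limited BCL2A1 in young MSCs most.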
